A study of Homo sapiens with 18 samples.

Results

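The comparison set WM989 cells sorted for high NGFR and EGFR against WM989 cells sorted for low levels of both, each kept for 7 days in DMSO, the solvent control. WM989 is an established BRAF-mutant human melanoma line, and NGFR and EGFR are surface receptors of nerve growth factor and of epidermal growth factor. Libraries were chosen by their labels alone, which gave 3 DMSO high and 3 DMSO low libraries, 6 of the 18 in the series. Poly(A)-selected RNA was sequenced as paired ends, and 16784 of the 63677 genes listed passed the filter on low counts and were tested. The other libraries were unsorted bulk cells of both treatments, which entered only an alternative fit, and cells held for 7 days in 4 µM EPZ5676, an inhibitor of the histone methyltransferase DOT1L, of which 3 high and 3 low libraries served for a side comparison. Both sorts come from a single line, both carry its BRAF mutation and both received DMSO, so no group stands for normal melanocytes. The 3 replicates of a sort have labels of their own, but whether each was a culture of its own is not stated, so p-values measure only the spread between these samples.

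Some melanoma lines hold mostly pigment-type cells, in which the transcription factor MITF drives melanin enzymes and melanosome proteins, and a few cells with low MITF and high AXL, a receptor tyrosine kinase. Such cells are known for the RNA of secreted matrix, growth factors and AP-1 transcription factors, and a small share of WM989 cells with high NGFR and EGFR is known to outlive inhibitors of mutant BRAF. The comparison asks which genes set these cells apart from cells sorted for low levels of both receptors, before any such inhibitor was given. Levels are CPM, read counts scaled to a common library size with TMM factors. Fold changes are log2 values of high minus low, ± SE, and a gene counts as called below an adjusted p of 0.05.

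The sort genes checked the labels and are given with no test. NGFR stood at 552, 527 and 606 CPM in the 3 high libraries, against 0.634, 1.6 and 0.759 CPM in the 3 low libraries. EGFR stood at 83.9, 72 and 67.4 CPM in high cells, against 2.24, 2.65 and 3.44 CPM in low cells. Neither gene overlapped between the sorts. NGFR shares up to 202 exon bases with its antisense gene NGFR-AS1 in GENCODE 29, and the strand setting of the counts is not given in the sources used here.

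The 6 libraries held 15022352 to 22111994 gene counts. Sort made up the first principal component, with 85.7% of the variance, and correlations of log2 CPM ran from 0.986 to 0.993 within a sort and from 0.914 to 0.918 between sorts. DMSO high replicates 2 and 3 lay at opposite ends of the second component (4.91% of the variance), at 29.2 and -27.2, with the other 4 libraries between them. Reads outside annotated features made up 21.4% of DMSO high replicate 3, but 12.9% to 15.2% of the other 5 libraries. Small nuclear 7SK RNA, picked after its values were seen, stood at 1.61, 0.426 and 205 CPM in high libraries, against 0.293, 0.55 and 1.38 CPM in low libraries, so DMSO high replicate 3 alone was high. It was not called, but it was called with estimation that was not robust (adjusted p = 0.00806). The linker histone gene H1-4 was also highest in DMSO high replicate 3, at 1.01, 0.993 and 13.6 CPM in high libraries and 0.195, 0.35 and 0.223 CPM in low libraries. Unlike for 7SK, every high library lay above every low library. H1-4 was not called, but it was called without DMSO high replicate 3 or with estimation that was not robust (adjusted p = 0.00412 to 0.00459). H1-4 was also called with a replicate block. Without DMSO high replicate 3 its fold change was 1.95. Without that library 4594 genes were higher and 4399 lower, against 4871 and 4670 with it. The 20 most abundant genes took 9.23% to 9.67% of the gene counts in high libraries, against 6.22% to 6.38% in low libraries.

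High and low cells differed in 9541 genes (56.8% of those tested), and more of the large differences were gains than losses. Of 16784 genes tested, 4871 (29%) were higher and 4670 (27.8%) lower in high cells, and 10532 (62.8%) had no overlap between the 3 and 3 libraries. At least 2-fold higher were 2101 genes (12.5%), and at least 2-fold lower were 1005 (5.99%). Changes of 16-fold or more were found for 362 genes in the upward direction and 38 in the downward direction. Among the genes at least 2-fold higher, the median level was 6.81 CPM in high cells and 1.21 CPM in low cells, and 991 of them (47.2%) averaged under 1 CPM in low cells. The genes at least 2-fold lower had a median of 4.08 CPM in high cells and 13.9 CPM in low cells, and 311 (30.9%) averaged under 1 CPM in high cells. Below, every gene called higher or lower and named with values had no overlap between the high and the low libraries, except RUNX2; the rule for naming asked this of all but the defining members of each list. In a sorted population, fewer cells of a type and less RNA per cell cannot be told apart.

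**Figure D1:**
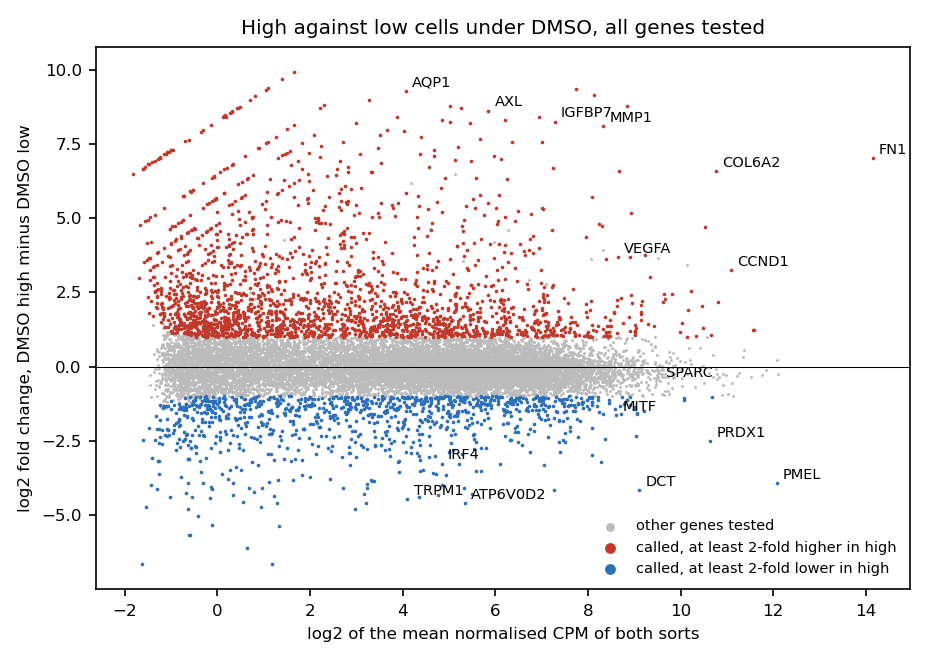
Each point is 1 of 16784 genes tested, with the log2 of its mean CPM over both sorts on the x axis and its log2 fold change, high minus low under DMSO, on the y axis. Red points are the 2101 genes called and at least 2-fold higher, blue points the 1005 called and at least 2-fold lower, and the upward changes reach farther than the downward ones.

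Pigment genes were lower in high cells. Of 12 tested genes for melanin synthesis and the melanosome matrix, 10 were lower and 0 higher (median -1.63, against 0.00 over all genes tested). PMEL, which forms the fibrils of the melanosome, stood at 498, 520.1 and 574 CPM in high libraries, against 7917, 7925 and 8449.8 CPM in low libraries (-3.93 ± 0.06, adjusted p = 4.75e-17 by edgeR's quasi-likelihood test). MLANA, a melanosome membrane protein, stood at 56, 57 and 70.2 CPM in high cells, against 540.3, 581 and 571 CPM in low cells (-3.21 ± 0.08). The sorts did not overlap for either gene, with every low library above every high library. TYR, the rate-limiting enzyme of melanin synthesis, stood at 62.6, 50.1 and 67.6 CPM in high cells, against 222, 210.5 and 191 CPM in low cells (-1.79 ± 0.10). The exchanger SLC24A5 was at 16.8, 14.8 and 16.5 CPM in high cells, against 66.1, 68.3 and 68.9 CPM in low cells. GPR143, a melanosome receptor, was lower by a smaller step, at 52.5, 51.9 and 51 CPM in high cells, against 123, 131 and 122 CPM in low cells (-1.27 ± 0.06). OCA2, a melanosome transporter, was not called (0.55 ± 0.30) and was low in both sorts.

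Genes that build and move melanosomes were lower as well, though less far. Of 21 tested, 15 were lower and 2 higher (median -0.44). RAB27A and RAB38, small GTPases of melanosome transport, changed by -1.25 ± 0.07 and -1.90 ± 0.07. MLPH, the linker between RAB27A and its motor, was instead higher (0.35 ± 0.06), and the motor MYO5A was not called (0.04 ± 0.06). TRPM1, a cation channel of melanocytes, stood at 1.67, 0.898 and 2.04 CPM in high cells, against 36.5, 31.4 and 30.6 CPM in low cells (-4.47 ± 0.19). Of 9 melanocyte receptors and ligands, 4 were higher and 3 lower, with EDNRB (-1.04 ± 0.09) and ERBB3 (-1.27 ± 0.06) lower and KITLG, the ligand of KIT, higher (2.81 ± 0.14). MC1R, the melanocortin receptor, was not called (7.05 ± 1.5 CPM in high cells and 7.58 ± 0.58 CPM in low cells, SD, n = 3 each).

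Promoter sequence is shown for 4 of the lowered pigment genes because they share the core of the M-box, the element that MITF is known to bind. RefSeq promoters on GRCh38.p14 matched 7797 of the 16784 genes tested (46.5%), and the 250 bases before each start were searched on both strands. The core TCATGTG, or CACATGA on the other strand, was found in 5 of 8 matched melanin genes, namely GPNMB (-0.18 ± 0.05, a call lost without DMSO high replicate 1 or DMSO low replicate 2 (adjusted p = 0.0525 to 0.0552)), GPR143, SLC24A5, TYR and TYRP1 (-1.47 ± 0.25). Both TYRP1 and SLC24A5 share exon bases with a gene on the other strand. Among genes at least 2-fold lower in high cells, 15 of 417 promoters (3.60%) held it, against 14 of 895 (1.56%) at least 2-fold higher and 111 of 7797 (1.42%) in all. Each stretch of 80 bases below runs along the strand of its gene, with the core in capitals: TYR at chr11:89177733-89177812 on the plus strand, TYRP1 at chr9:12693203-12693282 on the plus strand, GPR143 at chrX:9765866-9765945 on the minus strand and SLC24A5 at chr15:48120910-48120989 on the plus strand.
TYR: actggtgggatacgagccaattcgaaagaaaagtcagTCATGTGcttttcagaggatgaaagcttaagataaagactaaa
TYRP1: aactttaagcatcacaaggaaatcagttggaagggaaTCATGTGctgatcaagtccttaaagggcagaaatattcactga
GPR143: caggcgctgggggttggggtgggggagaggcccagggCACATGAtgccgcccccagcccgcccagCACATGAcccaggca
SLC24A5: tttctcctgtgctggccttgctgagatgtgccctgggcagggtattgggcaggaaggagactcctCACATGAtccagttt
The core starts at -105 in TYR, at -145 in TYRP1, at -61 and -33 in GPR143 and at -15 in SLC24A5, counted from the RefSeq start. A match is a description of the sequence, and the palindromic E-box CACGTG, which neither contains nor is contained in the core, was found more often among the lowered genes than among the raised ones (48 of 417, or 11.5%, among lowered genes, 52 of 895, or 5.81%, among raised genes and 696 of 7797, or 8.93%, in all).

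Transcription factors of the melanocyte lineage did not move as 1 block. Of 17 tested, 7 were higher and 8 lower. MITF stood at 193, 177 and 198 CPM in high libraries, against 636, 579.7 and 560.5 CPM in low libraries (-1.64 ± 0.06). IRF4, a partner of MITF in pigmentation, was lower still, at 4.7, 4.87 and 6.81 CPM in high cells, against 52.4, 52.7 and 51 CPM in low cells (-3.27 ± 0.12). SOX10, which keeps neural crest and melanocyte identity, stood at 286, 237 and 339 CPM in high cells, against 768, 773 and 691 CPM in low cells (-1.37 ± 0.12). SOX9, its relative in mesenchymal and stem-like cells, was found in every high library (7.44, 5.72 and 5.78 CPM) and in 1 of 3 low libraries (0, 0 and 0.0446 CPM). SOX6 was lower (-2.54 ± 0.09) and PAX3 higher (0.81 ± 0.10). TFAP2A and TFAP2C, paralogs of the AP-2 family, changed in opposite directions, by -0.92 ± 0.13 and 2.95 ± 0.07. POU3F2, a neural crest factor, was not called (-0.13 ± 0.08), but it was called without DMSO high replicate 3 (adjusted p = 0.0487).

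Factors of the epithelial to mesenchymal transition were mostly higher in high cells. Of 8 tested, 7 were higher and 1, SNAI1, lower (-0.65 ± 0.09). ZEB1 stood at 36.1, 32.1 and 31.2 CPM in high cells, against 9.17, 7.9 and 7.41 CPM in low cells (2.02 ± 0.11). TWIST1 (1.77 ± 0.06), PRRX1 (2.31 ± 0.07) and TCF4 (2.91 ± 0.24) were higher too, while ZEB2 (0.28 ± 0.06) and SNAI2 (0.51 ± 0.07), which melanocytes also express, were higher by smaller steps. FOXC2, a mesenchymal forkhead factor, was at 16.1, 14.8 and 16.6 CPM in high cells, against 0, 0.15 and 0 CPM in low cells. Of 21 forkhead genes, 13 were higher and 3 lower, or 1 lower without DMSO low replicate 2. Among 13 KLF genes, 11 were higher, with KLF6 (1.36 ± 0.06) and KLF5 (2.61 ± 0.16), and 2 lower, KLF15 (-1.62 ± 0.14) and KLF16 (-0.60 ± 0.13). Of 27 HOX genes, 3 were higher and 6 lower, among them HOXB9 (-1.61 ± 0.12). Both HOX shares lay below those over all genes (29% higher and 27.8% lower).

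AP-1, the dimer of FOS, JUN and ATF proteins that growth factor signals switch on, was raised in nearly all its subunits. Of 17 tested, 14 were higher and 1, BATF, lower (median 1.68). JUN stood at 557, 459 and 403 CPM in high libraries, against 29.6, 20.3 and 19.1 CPM in low libraries (4.36 ± 0.24, adjusted p = 5.19e-05). FOSL1 stood at 402, 326 and 429 CPM in high cells, against 102, 122 and 103 CPM in low cells (1.82 ± 0.11). ATF3, also a stress gene, was at 68.2, 71.6 and 63.4 CPM in high cells, against 3.76, 4.75 and 3.75 CPM in low cells (4.05 ± 0.11). The immediate early genes varied more between libraries: FOSB was at 1345, 1159.7 and 961 CPM in high cells, against 206, 126 and 92.1 CPM in low cells (3.03 ± 0.39). JUNB (2.32 ± 0.10), JUND (1.68 ± 0.06) and FOSL2 (1.23 ± 0.09) were higher as well.

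The AP-1 element TGANTCA, which reads the same on both strands, was searched in the same promoters. It stood in 74 of 895 promoters (8.27%) of genes at least 2-fold higher, against 21 of 417 (5.04%) of genes at least 2-fold lower and 298 of 7797 (3.82%) in all. Promoter stretches are shown for 5 raised genes whose element lies near the start: IL11 and CXCL8, cytokines, PLAUR, the urokinase receptor, GJA1, a gap junction protein, and FST, which binds activin. They are at chr19:55370517-55370596 (minus strand, IL11), chr4:73740395-73740474 (plus strand, CXCL8), chr19:43670313-43670392 (minus strand, PLAUR), chr6:121435561-121435640 (plus strand, GJA1) and chr5:53480432-53480511 (plus strand, FST), with the element in capitals.
IL11: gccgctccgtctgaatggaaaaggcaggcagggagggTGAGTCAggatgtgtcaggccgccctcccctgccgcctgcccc
CXCL8: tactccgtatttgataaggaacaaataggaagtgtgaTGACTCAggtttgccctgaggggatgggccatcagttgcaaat
PLAUR: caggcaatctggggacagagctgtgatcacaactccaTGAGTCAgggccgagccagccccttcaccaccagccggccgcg
GJA1: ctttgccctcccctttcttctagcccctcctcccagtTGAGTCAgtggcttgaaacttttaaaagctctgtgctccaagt
FST: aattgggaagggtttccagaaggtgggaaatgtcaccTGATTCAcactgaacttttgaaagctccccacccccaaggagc
The element starts at -96 in IL11, -137 in CXCL8, -186 in PLAUR, -48 in GJA1 and -160 in FST. The TEAD element GGAATG was, on either strand, near its overall share in both directions (96 of 895, or 10.7%, among raised genes, 38 of 417, or 9.11%, among lowered genes and 714 of 7797, or 9.16%, in all), and the SOX element ACAAAG was, on either strand, held by 105 of 895 (11.7%), 48 of 417 (11.5%) and 667 of 7797 (8.55%).

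YAP1 and WWTR1 are coactivators that read cell shape and tension through TEAD factors. Of 21 tested genes of that pathway, 14 were higher and 4 lower (median 0.70). Both coactivators were higher, WWTR1 (1.18 ± 0.05) more than YAP1 (0.57 ± 0.06), while TEAD2 (-0.87 ± 0.11) and TEAD4 (-0.52 ± 0.08) were lower and TEAD1 was not called (-0.04 ± 0.06). CCN2, a matricellular target, stood at 119.6, 123 and 107 CPM in high cells, against 32.9, 25.9 and 29.1 CPM in low cells (1.99 ± 0.09). CRIM1 was higher (4.29 ± 0.11), and CCN1, another target, was higher at a low level (1.08 ± 0.0619 CPM in high cells and 0.0315 ± 0.0274 CPM in low cells, SD, n = 3 each). LATS2, the kinase that restrains YAP1, was lower (-0.39 ± 0.08).

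**Figure D2:**
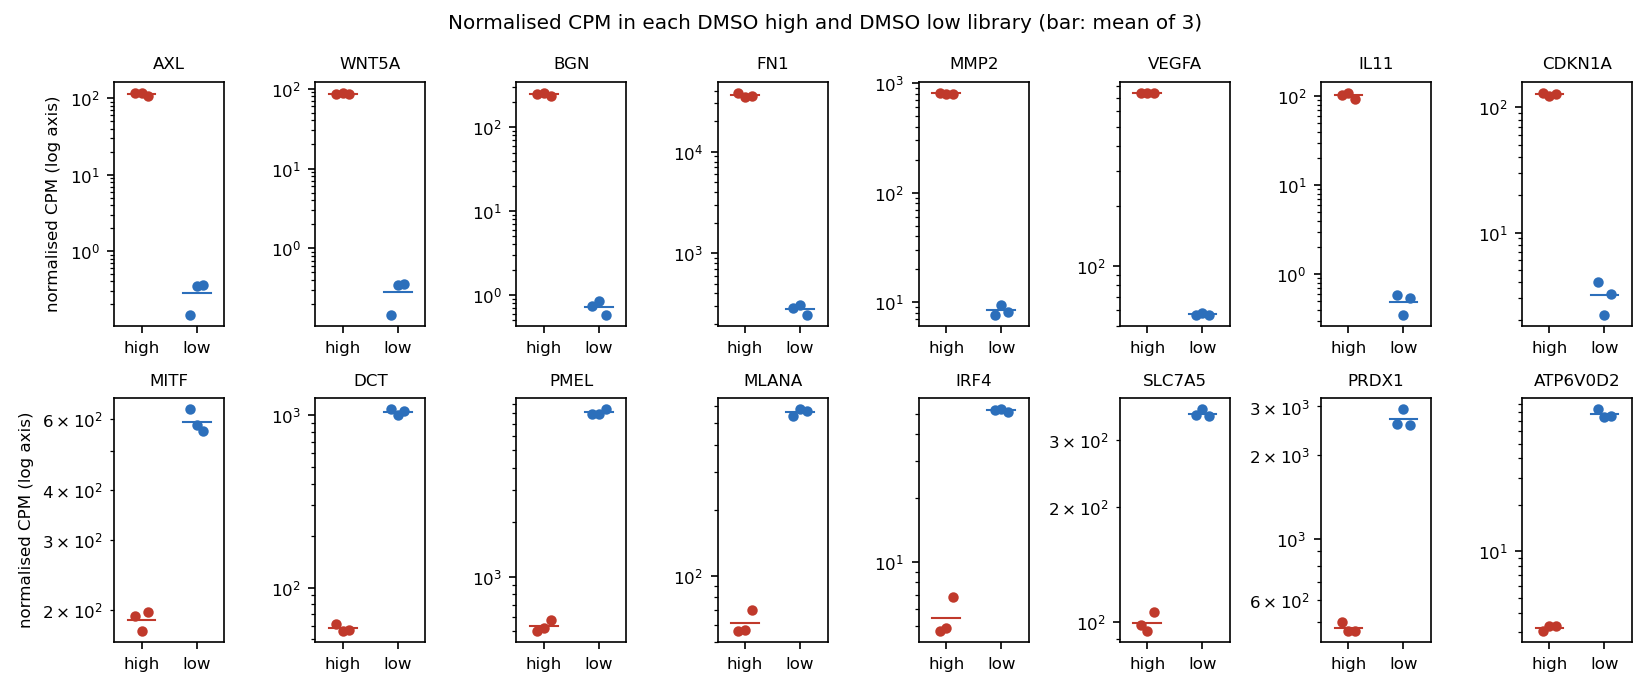
Normalised CPM (log axis) of 16 genes in each of the 3 DMSO high libraries (red, left in each panel) and the 3 DMSO low libraries (blue, right), with a bar at the mean. In the upper row, from AXL to CDKN1A, every high library lies above every low library, and in the lower row, from MITF to ATP6V0D2, every high library lies below.

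Markers of the rare resistant state were raised almost throughout, which was known of these samples when the list was made. Of 18 tested, 16 were higher, LOX was not called (0.30 ± 0.61) and PLAU was lower (-2.69 ± 0.60). AXL stood at 118, 119 and 108 CPM in high libraries, against 0.146, 0.35 and 0.357 CPM in low libraries (8.62 ± 0.14, adjusted p = 9.69e-17). RUNX2, a bone and mesenchymal factor, was called higher by a small step (0.36 ± 0.13) with libraries that overlapped, a call lost without DMSO high replicate 1, DMSO high replicate 3, DMSO low replicate 2 or DMSO low replicate 3 or with scaling by library size alone (adjusted p = 0.0613 to 0.0959). Within the AXL family the other receptors were lower, MERTK (-1.15 ± 0.10) more than TYRO3 (-0.61 ± 0.07). The AXL ligand GAS6 was at 14.9, 16.4 and 14 CPM in high cells, against 0.293, 0.40 and 0.58 CPM in low cells (5.12 ± 0.21), while PROS1, ligand of the other receptors, was not called (-0.13 ± 0.07), but it was called with scaling by library size alone (adjusted p = 0.0474).

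EGF family ligands and receptors split by member. Of 15 tested, EGFR included, 8 were higher and 4 lower, the lower share being near that over all genes (27.8%). EGFR is one of the higher ones, and the sort itself selected for it. TGFA, a ligand of EGFR, stood at 7.98, 7.23 and 6.87 CPM in high cells, against 0.683, 0.50 and 0.491 CPM in low cells (3.71 ± 0.23). EREG, another EGFR ligand, was found in every high library (7.03, 4.07 and 5.85 CPM) and in 1 of 3 low libraries (0, 0.10 and 0 CPM). EGF itself was not called (0.13 ± 0.19). HBEGF, which also binds EGFR, was higher (0.40 ± 0.14), a call lost without DMSO high replicate 1, DMSO low replicate 1 or DMSO low replicate 2 (adjusted p = 0.0741 to 0.114). The neuregulins, ligands of ERBB receptors, went opposite ways, with NRG1 (1.58 ± 0.20) and NRG2 (2.19 ± 0.13) higher. NRG3 was lower, at 4.7, 2.7 and 4.83 CPM in high cells, against 53.5, 49 and 43.4 CPM in low cells (-3.61 ± 0.17). ERRFI1, which inhibits EGFR, stood at 629, 594 and 595 CPM in high cells, against 22.2, 25.3 and 21.1 CPM in low cells (4.73 ± 0.08). ERBB2 was not called (-0.19 ± 0.09), but it was called without DMSO high replicate 2 or with scaling by library size alone (adjusted p = 0.0301 to 0.0344).

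Partners of NGFR moved unevenly. Of 15 tested neurotrophins, co-receptors and adaptors, NGFR included, 6 were higher and 4 lower, or 2 lower without DMSO low replicate 2 or DMSO low replicate 3. NGFR is one of the higher ones, and the sort itself selected for it. The lowered share was near that over all genes (27.8%). BDNF, a neurotrophin, was higher (4.81 ± 0.697 CPM in high cells and 0.0797 ± 0.0754 CPM in low cells, SD, n = 3 each, 5.81 ± 0.43), though it shares exon bases with BDNF-AS. Its receptor NTRK2 was higher (2.67 ± 0.37), and SORT1, the sortilin co-receptor of NGFR, was lower (-0.75 ± 0.06).

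Most of the PDGF and VEGF system, which acts on mesenchymal and vessel cells, was raised. Of 14 tested, 11 were higher and 2 lower (median 3.33). PDGFRB stood at 103, 97.3 and 97.9 CPM in high libraries, against 1.9, 2.2 and 1.29 CPM in low libraries (5.79 ± 0.12), and PDGFRA was higher by 6.02 ± 0.13. The ligand VEGFA stood at 745, 743 and 739.7 CPM in high cells, against 56.9, 58 and 56.8 CPM in low cells (3.70 ± 0.06), and the lymphatic ligand VEGFC at 49.2, 45 and 43 CPM in high cells, against 0.83, 1.55 and 1.07 CPM in low cells. NRP1, a co-receptor of VEGFA and semaphorins, was at 71.5, 64.1 and 57.4 CPM in high cells, against 0.244, 0.20 and 0.179 CPM in low cells (8.24 ± 0.17), while its paralog NRP2 differed by 0.25 ± 0.07. The lowered members were VEGFB (-0.28 ± 0.09), a call lost without DMSO high replicate 1 or DMSO low replicate 3 (adjusted p = 0.0639 to 0.0746), and the placental factor PGF (-0.57 ± 0.19), a call lost without DMSO high replicate 3, DMSO low replicate 2 or DMSO low replicate 3 (adjusted p = 0.0576 to 0.0719).

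In the FGF system 9 of 18 tested genes were higher and 4 lower, the lower share being below that over all genes (27.8%). FGF1 stood at 77.4, 81.1 and 68.2 CPM in high cells, against 3.03, 3.5 and 3.08 CPM in low cells (4.56 ± 0.11), and FGF5 at 34.7, 32.5 and 32 CPM in high cells, against 0.439, 0.90 and 0.402 CPM in low cells (5.83 ± 0.19). FGF2, the best known melanocyte mitogen of the family, was not called (0.50 ± 0.28). Among receptors FGFR1 was higher (2.16 ± 0.06) and FGFR4 lower (-1.31 ± 0.12). In the IGF system 9 of 13 were higher and 3 lower. IGFBP7, a secreted IGF-binding protein, stood at 319.8, 330.1 and 283 CPM in high cells, against 0.732, 0.80 and 1.47 CPM in low cells (8.25 ± 0.16), and the adaptors IRS1 (1.92 ± 0.10) and IRS2 (-0.88 ± 0.08) changed in opposite directions. The receptor IGF1R was not called (0.14 ± 0.06), but it was called without DMSO high replicate 2, with the 12 sorted libraries fitted, with all 18 libraries fitted or with a mean of at least 5 CPM asked for (adjusted p = 0.0186 to 0.0214).

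**Figure D3:**
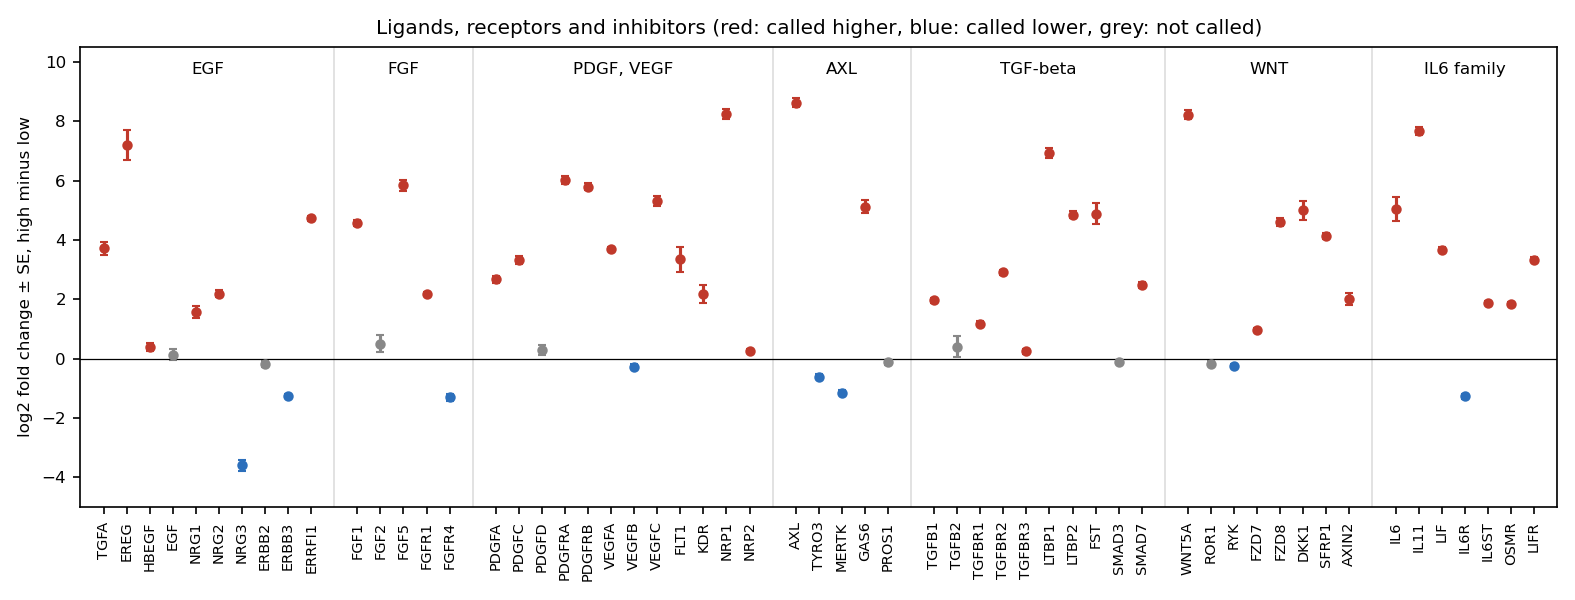
Log2 fold change, high minus low under DMSO, of ligands, receptors and inhibitors on the y axis, grouped by family along the x axis, with bars of 1 SE. AXL, NRP1, WNT5A and IL11 lie highest, NRG3 is the lowest, and members of a family such as NRG1 and NRG3 or FGFR1 and FGFR4 fall on opposite sides of 0.

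TGF-beta, activin and BMP genes were higher for 20 of 37 tested and lower for 6 (median 0.40). The signalling receptor TGFBR2 stood at 122, 117 and 113 CPM in high libraries, against 14.2, 16.6 and 16.1 CPM in low libraries (2.90 ± 0.08), and the ligand TGFB1 was higher by 1.96 ± 0.08. LTBP1, which stores latent TGF-beta in the matrix, was at 91.2, 99.1 and 74.6 CPM in high cells, against 0.439, 0.85 and 0.848 CPM in low cells (6.94 ± 0.17). SMAD7, the feedback inhibitor, was higher (2.47 ± 0.10), and SMAD3, the signal carrier, was not called (-0.12 ± 0.06), but it was called with scaling by library size alone (adjusted p = 0.0297). FST, which traps activin, was higher (4.88 ± 0.36), and INHBA, the activin subunit, also (3.42 ± 0.38). GDF15, a stress-induced relative, was lower (-1.31 ± 0.07).

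Among WNT genes 14 of 28 tested were higher and 5 lower. WNT5A, a ligand that acts without beta-catenin and is known in invasive melanoma, stood at 86.4, 89.5 and 85.5 CPM in high cells, against 0.146, 0.35 and 0.357 CPM in low cells (8.22 ± 0.15). Its low libraries happened to hold the same read counts as those of AXL. Its receptor ROR1 was not called (-0.18 ± 0.08), but it was called with scaling by library size alone (adjusted p = 0.0262), and RYK was lower (-0.25 ± 0.06). SFRP1, a secreted WNT antagonist, stood at 139, 129 and 117 CPM in high cells, against 7.08, 8.05 and 7.01 CPM in low cells (4.12 ± 0.09), and DKK1, another antagonist, at 8.04, 7.05 and 10.1 CPM in high cells, against 0.342, 0.35 and 0.0893 CPM in low cells. DKK3, a divergent member of that family, was found in every high library (3.45, 3.78 and 2.59 CPM) and had no count in any low library. Set against a limit of 3 counts over the 3 low libraries, it was at least 68.7-fold higher. Of 18 Notch genes, 10 were higher and 3 lower. NOTCH3 stood at 11.9, 13.4 and 11.3 CPM in high cells, against 0.293, 0.15 and 0.179 CPM in low cells (5.84 ± 0.24), and the ligand DLL3 was lower (-1.85 ± 0.10).

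Feedback inhibitors and targets of the MAPK pathway, the pathway that mutant BRAF drives, were higher for 15 of 19 tested and lower for 4. DUSP6, a phosphatase of ERK, stood at 805, 745 and 713 CPM in high cells, against 318, 274 and 266 CPM in low cells (1.40 ± 0.07). EGR1, an immediate early gene, was at 908, 734 and 802 CPM in high cells, against 184, 155 and 125 CPM in low cells (2.40 ± 0.16). PHLDA1 (1.76 ± 0.06), SPRY4 (1.25 ± 0.06) and SPRY2 (0.68 ± 0.06) were higher. The lowered members were DUSP10 (-0.92 ± 0.10), ETV4 (-0.89 ± 0.06), ETV5 (-0.33 ± 0.06) and MYC, at 198, 179 and 246 CPM in high cells, against 624, 690.5 and 572 CPM in low cells (-1.60 ± 0.12).

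Genes of the extracellular matrix were raised far. FN1, fibronectin, stood at 38360.3, 34412 and 35646 CPM in high libraries, against 288, 309 and 246 CPM in low libraries (7.01 ± 0.10, adjusted p = 1.96e-11). Of 9 fibrillar collagen genes, 7 were higher and 0 lower, and of 24 other collagen genes 19 were higher and 1 lower. COL1A1 varied between high libraries, at 806, 1105 and 827 CPM, against 1.71, 2.85 and 1.65 CPM in low libraries (8.79 ± 0.28). COL6A2, a chain of beaded microfibrils, stood at 3586, 3478 and 3301 CPM in high cells, against 35.5, 40.2 and 31.7 CPM in low cells (6.59 ± 0.09), and its partners COL6A1 (4.71 ± 0.06) and COL6A3 (5.25 ± 0.09) rose with it. Of 12 laminin chains of basement membranes, 9 were higher and 2 lower. LAMB3 was at 184, 204 and 169 CPM in high cells, against 14.1, 13.9 and 13.7 CPM in low cells (3.74 ± 0.08), and LAMA1 (-1.28 ± 0.06) and LAMC3 (-1.69 ± 0.13) were the lowered chains.

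Of 31 matricellular and adhesion genes, 25 were higher and 5 lower (median 2.18). THBS1, thrombospondin, stood at 564, 489.8 and 553 CPM in high cells, against 9.52, 10.3 and 10.8 CPM in low cells (5.71 ± 0.08), and TNC, tenascin, at 892, 879 and 903 CPM in high cells, against 64.8, 76.2 and 64.8 CPM in low cells. BGN, the proteoglycan biglycan, was at 249, 259 and 234 CPM in high cells, against 0.732, 0.85 and 0.58 CPM in low cells (8.42 ± 0.11). CD44, the hyaluronan receptor, was higher (2.18 ± 0.07). The lowered members were FBLN5 (-3.85 ± 0.16), LUM (-1.11 ± 0.10), MCAM (-1.03 ± 0.06), ICAM1 (-0.70 ± 0.08) and SPARC (-0.50 ± 0.06).

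Integrins, the receptors of that matrix, were raised in 9 of 13 tested alpha and 5 of 6 beta subunits. ITGA3, which binds laminin, stood at 1151, 1120.0 and 1089 CPM in high cells, against 82.1, 78.7 and 85.2 CPM in low cells (3.77 ± 0.06). ITGA11 (8.76 ± 0.21) and ITGA1 (4.08 ± 0.14) bind collagen. The shared beta subunit ITGB1 was higher by 1.57 ± 0.06, a smaller step, and ITGAV (-0.34 ± 0.06) and ITGA4 (-0.45 ± 0.06) were lower.

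Proteases and their inhibitors rose side by side. Of 15 matrix metalloproteinases, 12 were higher and 2 lower (1 lower without DMSO high replicate 1 or DMSO low replicate 2), and of 3 TIMP inhibitors all were higher. MMP1, a collagenase, stood at 651, 713 and 553 CPM in high cells, against 2.68, 2.75 and 1.61 CPM in low cells (8.10 ± 0.20). MMP2, a gelatinase, stood at 819.8, 796 and 804 CPM in high cells, against 7.71, 9.5 and 8.26 CPM in low cells (6.57 ± 0.08), and its inhibitor TIMP3 at 2898, 3214 and 2742 CPM in high cells, against 617, 652 and 674 CPM in low cells (2.19 ± 0.06). Of 11 ADAMTS proteases, 9 were higher and 1 lower, while ADAM proteases were even (4 higher and 4 lower of 10, with a median of 0.05 that turned to -0.00 when scaled by library size). Of 11 serpins, 9 were higher and 0 lower. In plasminogen activation and matrix crosslinking 9 of 13 were higher and 2 lower. PLAUR stood at 221, 254 and 210.2 CPM in high cells, against 21.4, 26.4 and 23.7 CPM in low cells, and the crosslinker LOXL2 was higher (3.89 ± 0.08). The lowered genes were the activator PLAT (-0.26 ± 0.07) and PLAU (-2.69). PLAU was no longer among the genes called when a mean of at least 5 CPM was asked for.

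The contractile cytoskeleton was raised as well, with 18 of 21 tested genes higher and 0 lower (median 1.24). ACTA2, smooth muscle actin, was higher at a low level (3.3 ± 0.0689 CPM in high cells and 0.139 ± 0.134 CPM in low cells, SD, n = 3 each), and the filamin FLNA (1.24 ± 0.05), tropomyosin TPM4 (1.81 ± 0.05) and myosin light chain kinase MYLK (2.35 ± 0.08) were higher too. Of 13 genes of cell junctions and caveolae, 10 were higher and 3 lower. CAV1, the caveola scaffold, stood at 661, 605 and 610.3 CPM in high cells, against 52.1, 52.4 and 46.4 CPM in low cells (3.64 ± 0.07). CDH13 was at 13.6, 13.8 and 11.9 CPM in high cells, against 0.195, 0 and 0 CPM in low cells, CDH2 was higher (1.00 ± 0.08) and CDH3 lower (-3.20 ± 0.34). The gap junction genes switched, with GJA1 higher (5.19 ± 0.49) and GJB1 lower (-3.53 ± 0.14). Of 26 protocadherins, 21 were higher and 0 lower, but several of them share 2033 exon bases with PCDHGC3 in GENCODE 29. Reads on several genes were kept out of the counts, and whether these members are independent measures was not tested.

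Most of the inflammatory cytokines and receptors tested were raised, but chemokines were split. Of 26 tested inflammatory cytokines and receptors, 22 were higher and 2 lower (median 2.91). IL11, a cytokine of the IL6 family, stood at 102, 109.7 and 93.5 CPM in high libraries, against 0.586, 0.35 and 0.536 CPM in low libraries (7.67 ± 0.14, adjusted p = 1.76e-16). LIF, of the same family, was at 118, 122 and 110.05 CPM in high cells, against 8.49, 8.9 and 10.1 CPM in low cells (3.67 ± 0.09). Their shared receptor chain IL6ST (1.87 ± 0.08) and the partners LIFR (3.33 ± 0.09) and OSMR (1.83 ± 0.07) were higher, while IL6R was lower (-1.27 ± 0.08). IL1B, an inflammatory cytokine, stood at 10.6, 14.4 and 10.2 CPM in high cells, against 0.244, 0.050 and 0.0893 CPM in low cells (6.46 ± 0.32), and CXCL8, a neutrophil chemokine, at 11.4, 9.03 and 7.01 CPM in high cells, against 0.244, 0.45 and 0.268 CPM in low cells. CCL2 was found in every high library (3.75, 4.07 and 2.79 CPM) and had no count in any low library, which makes it at least 74.1-fold higher against the same limit. Of 9 chemokines, 5 were higher and 4 lower, the lowered ones being CCL28 (-0.50 ± 0.10), CX3CL1 (-0.40 ± 0.09), CXCL16 (-0.67 ± 0.14) and CCL17 (-2.92 ± 0.61), the last named after its values were seen. With a mean of at least 5 CPM asked for, 0 chemokines were called higher.

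NF-kB, a factor known to switch on many cytokine genes, changed less in its own genes. Of 15 tested, 10 were higher and 3 lower. NFKB1 was not called (-0.12 ± 0.08) and NFKB2 was higher (0.59 ± 0.07). Far higher were PTGS2 (39.8 ± 4.63 CPM in high cells and 0.933 ± 0.204 CPM in low cells, SD, n = 3 each) and BIRC3 (3.99 ± 0.20), known targets of NF-kB. NFKBIZ, a cofactor, was lower (-1.34 ± 0.07). Of 27 interferon genes, 20 were higher and 3 lower (median 1.31). IRF1 stood at 49.2, 44.4 and 40.9 CPM in high cells, against 6.34, 5.85 and 5.98 CPM in low cells (2.89 ± 0.11), although it shares exon bases with IRF1-AS1, and BST2 at 13.8, 19.7 and 15.3 CPM in high cells, against 0.488, 0.40 and 0.446 CPM in low cells (5.18 ± 0.22). ISG15 (0.09 ± 0.10) and MX1 (-0.07 ± 0.20), classical interferon targets, were not called, and USP18 (-1.08 ± 0.14) and IFI6 (-0.51 ± 0.12) were lower.

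Among 31 immune ligands and MHC genes, 16 were higher and 7 lower. HLA-B stood at 102, 125 and 109 CPM in high cells, against 30.6, 39.1 and 37.6 CPM in low cells (1.64 ± 0.10), and near-identical genes of its family can share reads. NLRC5, which switches on MHC class I genes, was higher (3.31 ± 0.14), while the peptide transporters TAP1 (-1.05 ± 0.12) and TAP2 (-0.68 ± 0.11) were lower. CD274, which encodes PD-L1, was not called (0.14 ± 0.22). PDCD1LG2, which encodes PD-L2, was found in every high library (2.26, 2.74 and 1.77 CPM) and had no count in any low library, at least 47.4-fold higher against the same limit.

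**Figure D4:**
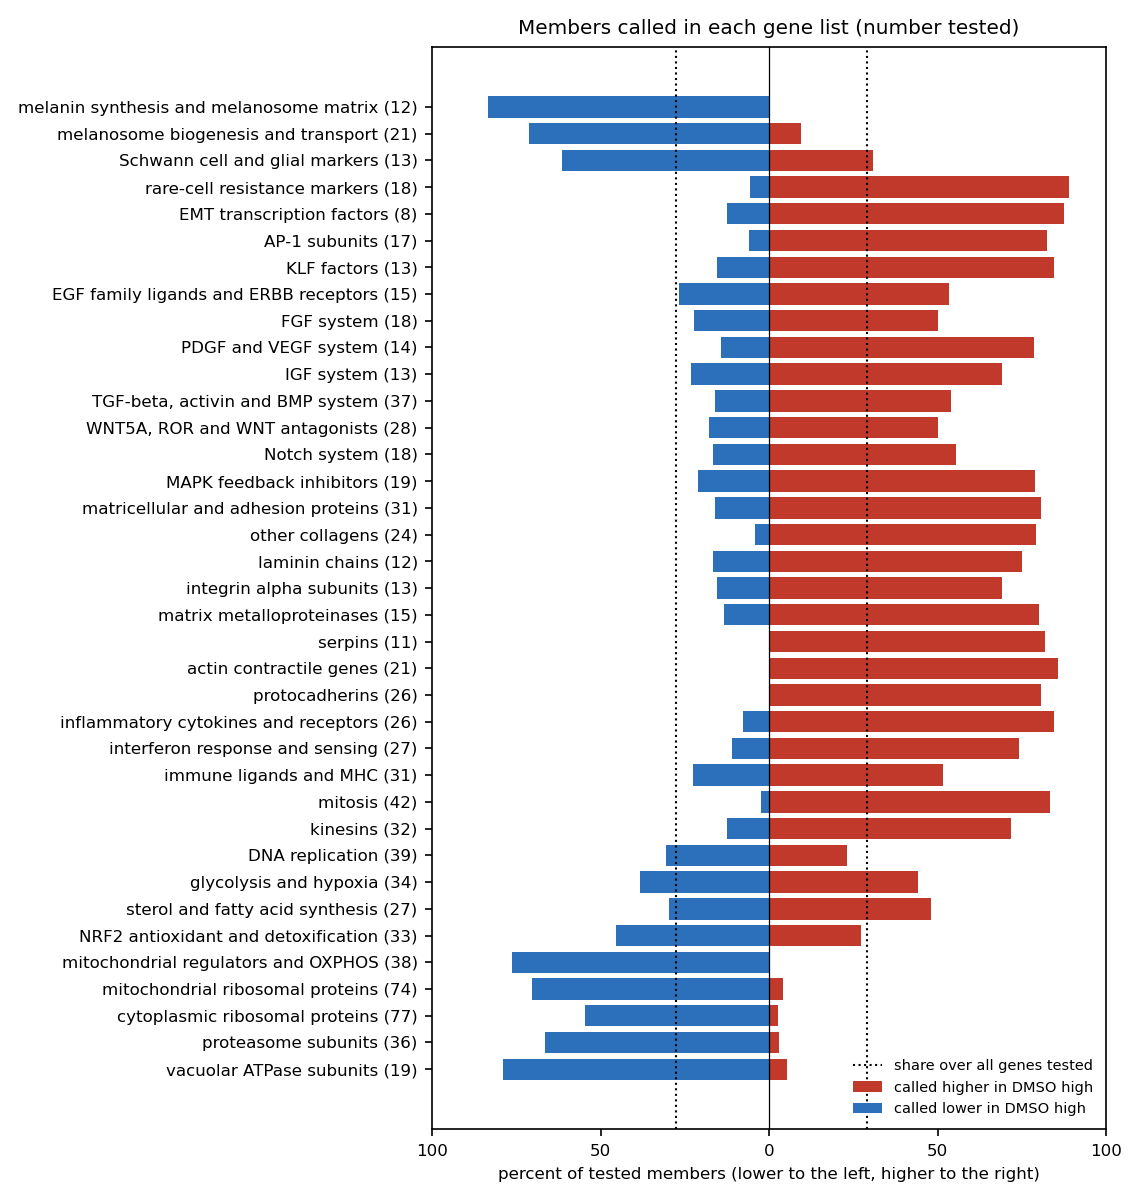
Share of the tested members of each gene list that were called higher (red, to the right) or lower (blue, to the left) in DMSO high than in DMSO low cells, with the number tested in brackets and dotted lines at the shares over all genes, 29% higher and 27.8% lower. Resistance markers, matrix, cytokine and mitosis lists reach far past the right line, and pigment, oxidative phosphorylation, ribosomal, proteasome and vacuolar ATPase lists past the left line. The EGF family list includes EGFR, which the sort itself selected for.

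Mitosis genes were higher in high cells by small steps. Of 42 tested mitosis genes, 35 were higher and 1, CDC20, lower (median 0.55), and 4 of them reached 2-fold. TOP2A, which untangles chromosomes, stood at 499.6, 487 and 465 CPM in high libraries, against 222, 206 and 219.6 CPM in low libraries (1.17 ± 0.06). CDK1 (0.89 ± 0.07) and MKI67 (0.64 ± 0.11) were higher. AURKB was higher by a small step (0.15 ± 0.06), a call lost without DMSO high replicate 1, DMSO high replicate 3, DMSO low replicate 1 or DMSO low replicate 2, by DESeq2, with a replicate block, with scaling by library size alone or with no filter (adjusted p = 0.057 to 0.184). BIRC5 was not called (0.25 ± 0.14), but it was called without DMSO high replicate 3, with a replicate block or with no filter (adjusted p = 0.0284 to 0.0473). Of 32 kinesins, many of them spindle motors, 23 were higher and 4 lower. DNA replication genes, in contrast, were close to the shares over all genes, with 9 of 39 higher and 12 lower. Among them RRM2, which supplies nucleotides, was higher (1.21 ± 0.06), and MCM6, of the replicative helicase, was lower (-0.47 ± 0.06). PCNA was not called (0.12 ± 0.05), but it was called with the 12 sorted libraries fitted, with all 18 libraries fitted, by limma-voom or with a mean of at least 5 CPM asked for (adjusted p = 0.0106 to 0.042).

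Some genes of the G1 phase changed further. CCND1, cyclin D1, stood at 3949, 4065 and 3860.2 CPM in high cells, against 409, 416 and 412 CPM in low cells (3.26 ± 0.05, adjusted p = 4.75e-17), and it shares 253 exon bases with LTO1 on the other strand. CDKN1A, an inhibitor of cyclin-dependent kinases, rose too, at 131, 123 and 127 CPM in high cells, against 4.0, 2.2 and 3.21 CPM in low cells (5.33 ± 0.13). CDK2 stood at 101, 98.1 and 106 CPM in high cells, against 542, 554 and 571 CPM in low cells (-2.45 ± 0.06). CCNE1 (-0.80 ± 0.10) and CDK4 (-0.47 ± 0.07) were lower, CDKN2C was higher (1.98 ± 0.07), and CDKN2A was not called (0.04 ± 0.06). In all, 14 of 21 were higher and 6 lower. Targets of p53, a group that includes CDKN1A, were split: 10 of 22 were higher and 6 lower, with FAS higher (3.08 ± 0.15), SESN1 lower (-0.77 ± 0.15) and MDM2 not called (-0.03 ± 0.08). The lowered share was near that over all genes (27.8%), and the count was 3 lower without DMSO low replicate 2 or DMSO low replicate 3.

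The BCL2 family, which sets the threshold of cell death, was called higher or lower in shares not far above those of all genes (29% higher and 27.8% lower). Of 18 tested, 7 were higher and 6 lower, but 3 lower without DMSO low replicate 3 (median 0.01, which turned to -0.04 with scaling by library size). MCL1, which blocks apoptosis, stood at 1003, 989 and 848 CPM in high cells, against 211, 194 and 209 CPM in low cells (2.21 ± 0.07). BCL2 was lower (-0.33 ± 0.11), a call lost without DMSO high replicate 3, DMSO low replicate 1 or DMSO low replicate 3 (adjusted p = 0.0535 to 0.0752), and BCL2L1 was not called (0.05 ± 0.07). HRK, which promotes apoptosis, stood at 2.56, 3.5 and 3.95 CPM in high cells, against 22.5, 21.7 and 24.4 CPM in low cells (-2.78 ± 0.14), and BMF, of the same class, was higher (1.76 ± 0.16).

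Genes of mitochondria, ribosomes, proteasomes and acid vesicles were lower together by small steps. Of 38 mitochondrial regulators and oxidative phosphorylation genes, 29 were lower and 0 higher (median -0.63), and of 37 complex I subunits 19 were lower and 2 higher. PPARGC1A, the coactivator of mitochondrial genes that MITF is known to switch on, stood at 3.75, 4.4 and 4.97 CPM in high cells, against 18.5, 14.9 and 15.6 CPM in low cells (-1.91 ± 0.14), and its paralog PPARGC1B was lower by a like step (-1.87 ± 0.11). CYC1, a subunit of complex III, stood at 273, 275 and 271 CPM in high cells, against 479.8, 506 and 542 CPM in low cells (-0.90 ± 0.06). Mitochondrial ribosomal proteins were lower for 52 of 74 and higher for 3 (median -0.42), or 1 higher without DMSO low replicate 1. Cytoplasmic ribosomal proteins were lower for 42 of 77 and higher for 2 (median -0.29), and proteasome subunits were lower for 24 of 36 and higher for 1.

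The vacuolar ATPase, the proton pump of melanosomes and lysosomes, was lower for 15 of 19 tested subunits and higher for 1 (median -0.57). ATP6V0D2, a subunit found in few tissues, stood at 3.04, 3.31 and 3.27 CPM in high cells, against 83.5, 74.7 and 75.8 CPM in low cells (-4.60 ± 0.10). The subunits ATP6V1C1 (-1.04 ± 0.06) and ATP6V1H (-1.05 ± 0.06) were lower by smaller steps.

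Amino acid uptake and redox genes were lower in part. Of 24 amino acid response and ER stress genes, 5 were higher and 10 lower. SLC7A5, the transporter of large neutral amino acids, stood at 98.4, 94.5 and 106 CPM in high cells, against 348, 361 and 346 CPM in low cells (-1.82 ± 0.06), and the cystine transporter SLC7A11 was lower (-1.66 ± 0.13). ATF4, the regulator of that response, was not called (0.05 ± 0.06). Of 33 antioxidant genes, 9 were higher and 15 lower. PRDX1, a peroxidase, stood at 503, 467 and 464 CPM in high cells, against 2597, 2934 and 2580.5 CPM in low cells (-2.50 ± 0.06), and shares 379 exon bases with MMACHC on the other strand (-0.87 ± 0.13). HMOX1 was lower (-1.10 ± 0.07), NQO1 higher (0.68 ± 0.07) and their regulator NFE2L2 was not called (-0.09 ± 0.07). Of 15 aldehyde dehydrogenases, 5 were higher and 6 lower, with ALDH1A1 (-2.38 ± 0.18) and ALDH1B1 (-2.11 ± 0.06) among the lowered ones.

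Sterol and fatty acid genes were split. Over both, 13 of 27 were higher and 8 lower. INSIG1 (1.39 ± 0.06), SQLE (1.07 ± 0.06) and HMGCS1 (0.95 ± 0.06) of sterol synthesis were higher. FASN (-0.95 ± 0.05), SCD (-0.71 ± 0.05) and ACLY (-0.39 ± 0.06) of fatty acid synthesis were lower, and so was the late sterol enzyme DHCR7 (-0.47 ± 0.07). Of 34 glycolysis and hypoxia genes, 15 were higher and 13 lower. The glycolytic enzymes GPI (-0.61 ± 0.05), PGK1 (-0.40 ± 0.05) and HK2 (-0.47 ± 0.05) were lower, LDHA was not called (-0.06 ± 0.05), and the hypoxia-inducible NDRG1 stood at 603, 599.98 and 536 CPM in high cells, against 22, 20.4 and 19.6 CPM in low cells (4.81 ± 0.08). HIF1A was not called (0.05 ± 0.07) and EPAS1 was higher (0.91 ± 0.07). Of 12 retinoic acid genes, 4 were higher, with TGM2 (4.29 ± 0.08) and RARG (1.31 ± 0.08), and 2 lower, ALDH1A1 and the receptor RXRG (-2.03 ± 0.09), which also marks a neural crest-like melanoma state. The raised share was near that over all genes (29%), and the lowered share was below that over all genes (27.8%).

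Neural genes went both ways. Of 17 genes of the neural crest-like state, 9 were higher and 5 lower, the lower share being near that over all genes (27.8%). AQP1, a water channel, stood at 32.9, 37.8 and 29.9 CPM in high cells, against 0, 0.050 and 0.0893 CPM in low cells (9.28 ± 0.27), while S100B (-0.87 ± 0.07), which glia share, was lower. Of 13 Schwann cell and glial markers, 4 were higher, near the share over all genes (29%), and 8 lower. POU3F1 stood at 2.56, 1.94 and 3.33 CPM in high cells, against 55.3, 45.4 and 54.1 CPM in low cells (-4.34 ± 0.15). MBP was higher (1.01 ± 0.06). Neuronal and synaptic genes were higher for 11 of 18 and lower for 4, the lower share being below that over all genes (27.8%). SNAP25, of the synaptic fusion machinery, was at 9.71, 9.36 and 8.78 CPM in high cells, against 0.0976, 0.10 and 0 CPM in low cells (7.05 ± 0.34), and SCG2, a granin, was higher (4.92 ± 0.09).

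Guidance receptors and channels changed member by member. PLXNA4, a semaphorin receptor, was found in every high library (9.59, 9.74 and 8.58 CPM) and in 1 of 3 low libraries (0, 0.050 and 0 CPM), and PLXNA2 was lower (-1.84 ± 0.12). Of 17 semaphorins, 8 were higher and 4 lower, with SEMA3A (1.42 ± 0.10) and SEMA6D (-2.26 ± 0.10) on opposite sides. EPHB3 (5.05 ± 0.20) and EPHA2 (3.34 ± 0.10) were higher and EPHA5 (-2.28 ± 0.15) and EPHA4 (-2.01 ± 0.13) lower. Of 33 potassium channel genes, 16 were higher and 13 lower: the calcium-activated channels KCNN4 (3.24 ± 0.08) and KCNN2 (-4.10 ± 0.21) went opposite ways. CACNA1H, a T-type calcium channel, stood at 8.69, 7.09 and 7.15 CPM in high cells, against 89, 85.1 and 90.7 CPM in low cells (-3.53 ± 0.09).

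Other genes with large changes lay outside these lists. IGFN1, a muscle protein, stood at 402, 438 and 446 CPM in high libraries, against 0.732, 0.60 and 0.625 CPM in low libraries (9.35 ± 0.10). CMKLR1, the receptor of chemerin, was at 19, 22.5 and 16.4 CPM in high cells, against 0, 0.050 and 0.0446 CPM in low cells (8.98 ± 0.32). ERMN (8.34, 6.24 and 4.36 CPM) and TREM1 (5.42, 6.62 and 3.81 CPM) were found in every high library and had no count in any low library, at least 132-fold and 111-fold higher against the limit of 3 counts. In all, 41 tested genes had no count in the 3 low libraries and 1 had none in the 3 high libraries. On the lowered side RLBP1, a retinoid-binding protein, stood at 3.93, 4.92 and 4.36 CPM in high cells, against 83.8, 85 and 90.5 CPM in low cells (-4.28 ± 0.10). BAAT, a bile acid enzyme, was at 4.41, 3.83 and 5.31 CPM in high cells, against 76.8, 79.98 and 71.7 CPM in low cells (-4.09 ± 0.11). PRDM7, a histone methyltransferase nearly identical to PRDM9 and so able to share its reads, was at 0.476, 0.709 and 0.408 CPM in high cells, against 20.2, 11.7 and 13.8 CPM in low cells (-4.78 ± 0.28), and ABCB5, a transporter of pigment cells, was lower (-3.66 ± 0.24).

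Markers of other cell types were read for the same libraries. Of 8 tested fibroblast markers, 7 were higher and 1, LUM, lower, and their summed level ran from 1262 to 1641 CPM in high libraries and from 78.3 to 80.4 CPM in low libraries. FAP stood at 29.5, 28.9 and 29.6 CPM in high cells, against 0.0488, 0.15 and 0.0446 CPM in low cells (8.41 ± 0.22). The defining markers THY1 (3, 0 and 3 counts in high libraries, 0, 1 and 1 in low libraries), POSTN (2, 2 and 0 counts in high libraries, 0 in each low library) and PDPN (0 in each of the 6) were at or near 0, and COL3A1 had 17, 19 and 6 counts in high libraries and 1, 2 and 0 in low libraries. Of 4 tested endothelial markers, 2 were higher and 1 lower, PECAM1 had 0 counts in all 6 libraries, and the summed level ran from 25 to 28.9 CPM in high and from 30.2 to 36.7 CPM in low libraries. Keratinocyte markers were higher for 2 of 4 tested (summed 50.8 to 60.2 CPM in high and 40.8 to 46.4 CPM in low libraries), and KRT5 and KRT1 had 0 counts throughout. Leukocyte markers were higher for 1 of 3 tested, CSF1R, at 8.63, 8.13 and 6.19 CPM in high cells, against 0.0488, 0.20 and 0 CPM in low cells (summed 9.85 to 13.8 CPM in high and 3.84 to 5.12 CPM in low libraries). PTPRC, the pan-leukocyte marker, had 9, 6 and 2 counts in high libraries and 14, 5 and 7 in low libraries. Fibroblast markers include matrix genes counted above, and their part in the other results was not tested.

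The same sorts under EPZ5676 share no library with the comparison under DMSO and give a second reading of the same genes. Of the 2101 genes at least 2-fold higher under DMSO, 1453 were at least 2-fold higher under EPZ5676 too, which is 69.2% of the DMSO genes and 86.9% of the 1673 genes found there. Of the 1005 genes at least 2-fold lower under DMSO, 638 were so under EPZ5676, which is 63.5% of them and 77.7% of 821. Directions were the same for 1966 of the 1980 raised genes tested in both and for 970 of 977 lowered genes. Since these genes were chosen by their size under DMSO, smaller sizes under EPZ5676 are no finding by themselves.

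The difference between the differences was tested directly. It was called for 863 of 17821 genes (4.84%). LIF had a high-low change of 3.67 ± 0.09 under DMSO and 1.97 ± 0.06 under EPZ5676 (difference 1.71 ± 0.10, adjusted p = 3.01e-11). COL6A1 (4.71 ± 0.06 under DMSO and 3.48 ± 0.06 under EPZ5676) and WNT5A (8.22 ± 0.15 and 6.24 ± 0.17 in the same order) had larger changes under DMSO. DCT, an enzyme of melanin synthesis, was lower in high cells by a larger step under DMSO (-4.17 ± 0.06) than under EPZ5676 (-3.33 ± 0.04, adjusted p = 5.13e-08 for the difference). AXL (8.62 ± 0.14 under DMSO and 7.08 ± 0.34 under EPZ5676, adjusted p = 0.22) and CCN2 (1.99 ± 0.09 and 1.99 ± 0.05, adjusted p = 0.978) were not called, which does not show that they changed alike. Reads on no feature made up 18.9%, 21.2% and 12.8% of the 3 EPZ5676 high libraries and 23.9%, 14.4% and 13.4% of the 3 EPZ5676 low libraries, and their part in the result was not tested. The count fell to 563 without DMSO low replicate 2, 497 without EPZ5676 high replicate 2, 523 without EPZ5676 low replicate 2 and 572 without EPZ5676 low replicate 3, and to 58 when all 18 libraries were fitted. In that fit the difference was not called for LIF (adjusted p = 0.139), COL6A1 (0.604), WNT5A (0.771) or DCT (0.406), and WNT5A was not called by limma-voom either (0.0717).

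**Figure D5:**
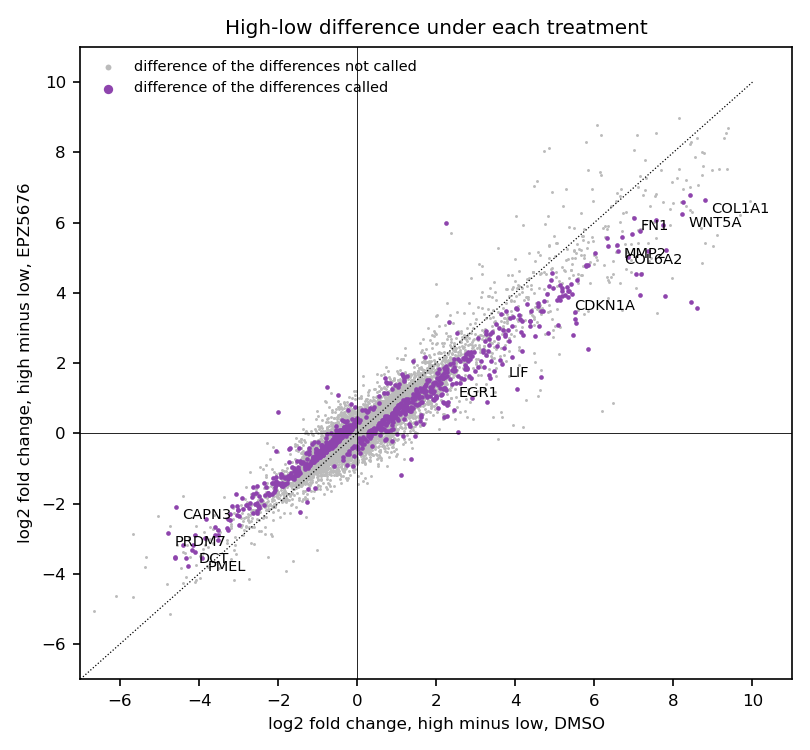
Log2 fold change, high minus low, under DMSO on the x axis and under EPZ5676 on the y axis, for genes tested in both, with the line of equal change dotted. Purple points are genes whose change differed between the treatments, and those with large changes, such as WNT5A, COL1A1 and LIF, lie below the line on the raised side, while DCT and PRDM7 lie above it on the lowered side.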

How the data were processed

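RNA was sequenced from WM989 cells in 18 libraries, of which the 6 DMSO sorted libraries gave the comparison and the 6 EPZ5676 sorted libraries a side comparison. The authors deposited raw counts per gene, with no normalization; the submitters' processing notes name STAR, HTSeq and the build hg19. Lines for reads on no feature or on several were kept out of library sizes and tests. Genes passing edgeR's filterByExpr were fitted on the 6 DMSO libraries with edgeR 4.0.16 (R 4.3.3, robust quasi-likelihood F-test, TMM factors, design of sort alone), with Benjamini-Hochberg adjustment over all 16784 genes tested. Reported SEs are fold changes divided by the square root of F. The difference between treatments was an interaction term over the 12 sorted libraries. Means carry the SD of 3 libraries. Counting depth was 15022352 to 22111994 per library, and the limit of 3 counts covers counting error only. Symbols came from a gene name table and GENCODE 29, and promoters from RefSeq. In the gene lists, 11 symbols were not found under the name given and were left out. Among them were DDX58, TMEM173, MB21D1, ACACA, NEFL and DUSP14, so some list counts may lack a member. The code was tested on simulated data. Genes named were drawn from the defining members of each list whatever their values and, among called genes without overlap whose mean in the higher sort reached 5 CPM, the 3 smallest p-values per list and direction and the 25 largest changes per direction; GPNMB, CCL17, MMACHC, 7SK and H1-4 were named after their values were seen. Members and lists were chosen with earlier results of these data known. Alternatives were other scalings, other filters, DESeq2 1.42.0, limma 3.58.1 (voom), no robust fit, more libraries in the fit, a replicate block and leaving out each library. Exon overlaps were read from GENCODE 29 on GRCh38, while the counts are on hg19, so they describe gene pairs and not the counted coordinates. A few results that need items withheld here are not reported.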

Additional observations from a re-analysis of the deposited data

Results flagged for a closer look

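For 96 of the genes described, the high-low difference under DMSO differed from that under EPZ5676 by the test of the difference itself (edgeR's quasi-likelihood test on the 12 sorted libraries, adjusted p under 0.05). With all 18 libraries in the fit, 9 of them were called, HMOX1, ITGA4, MBP, MCAM, MLPH, PLAT, SPARC, TEAD4 and TYRO3, and 73 of 96 to 90 of 96 were called without 1 library. limma-voom called 68 and DESeq2 95. Values in brackets are the log2 high-low difference under DMSO minus that under EPZ5676. Differences come from a joint fit, so they need not equal the gap between the changes fitted within each treatment. Since most of these genes were named for their change under DMSO, a larger change there is in part a matter of choice.

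Genes higher in high cells under both treatments and further raised under DMSO were, with the largest differences first, S100A3 (2.66), SNAP25 (2.54), PDE9A (2.40), TNFRSF1B (2.19), COL1A1 (2.17), WNT5A (1.99), LIF (1.71), IGFBP7 (1.68), BGN (1.64), CDKN1A (1.48), COL6A2 (1.43), GAS6 (1.34), COL6A3 (1.33), TGFA (1.31), NR2F1 (1.30), BST2 (1.30), EPHB3 (1.28), COL6A1 (1.24), MMP2 (1.23), VEGFC (1.16), PDGFRB (1.05), FGF5 (1.05) and EGR1 (1.02). Smaller differences of this kind were those of NLRC5 (0.98), LAMB3 (0.93), RGS3 (0.92), PDGFRA (0.90), FN1 (0.89), FGF1 (0.88), SFRP1 (0.88), EPHA2 (0.85), VEGFA (0.76), TGFBR2 (0.71), LIFR (0.65), TFAP2C (0.64), KCNN4 (0.62), TGM2 (0.61), FGFR1 (0.60), IRF1 (0.59), CDKN2C (0.58), IRS1 (0.56), TGFB1 (0.52), ATF3 (0.52) and MCL1 (0.52). The remaining ones were CCND1 (0.47), DUSP6 (0.46), SPRY4 (0.41), PLAUR (0.36), HMGCS1 (0.36), SCG2 (0.36), TIMP3 (0.35), ITGA3 (0.32), CAV1 (0.27), SQLE (0.27) and PHLDA1 (0.25). They include collagens, growth factors and their receptors, and immediate early genes.

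Genes lower in high cells under both treatments, and lower still under DMSO, were PRDM7 (-1.91), KCNN2 (-1.20), ATP6V0D2 (-1.02), HMOX1 (-0.83), DCT (-0.82), POU3F1 (-0.77), GJB1 (-0.77), HRK (-0.73), MLANA (-0.71), NRG3 (-0.70), BAAT (-0.69), SLC7A11 (-0.68), EDNRB (-0.59), SOX6 (-0.53), SLC7A5 (-0.53) and LAMA1 (-0.53). Smaller differences were those of IRF4 (-0.50), RLBP1 (-0.48), CACNA1H (-0.47), SLC24A5 (-0.44), IRS2 (-0.44), ALDH1B1 (-0.43), PRDX1 (-0.42), TYRO3 (-0.42), MCAM (-0.41), PMEL (-0.36), MITF (-0.36), GDF15 (-0.35), ITGA4 (-0.34), MCM6 (-0.29), ATP6V1C1 (-0.25) and HK2 (-0.25). Several of these are pigment genes or their regulators. BCL2 changed by -0.33 under DMSO and by 0.16 under EPZ5676, a difference of -0.48. MBP changed by 1.01 under DMSO and by -0.03 under EPZ5676, a difference of 1.06. MLPH changed by 0.35 under DMSO and by -0.08 under EPZ5676, a difference of 0.44. NFKB1 changed by -0.12 under DMSO and by 0.23 under EPZ5676, a difference of -0.33. PLAT changed by -0.26 under DMSO and by 0.35 under EPZ5676, a difference of -0.59. POU3F2 changed by -0.13 under DMSO and by 0.40 under EPZ5676, a difference of -0.52. RAB27A changed by -1.25 under DMSO and by -1.58 under EPZ5676, a difference of 0.34. SPARC changed by -0.50 under DMSO and by 0.01 under EPZ5676, a difference of -0.49. TEAD4 changed by -0.52 under DMSO and by 0.01 under EPZ5676, a difference of -0.52.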

How the results depend on the processing

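Of 257 genes called and named with values, 250 kept their direction and call under each of 16 alternatives that could be run on them, and 0 changed sign. The calls lost in some alternative were those of AURKB, BCL2, GPNMB, HBEGF, PGF, RUNX2 and VEGFB, and calls gained were those of 7SK, BIRC5, ERBB2, H1-4, IGF1R, PCNA, POU3F2, PROS1, ROR1 and SMAD3. Asking for a mean of at least 5 CPM, which tests fewer genes, left 1051 genes raised 2-fold and 540 lowered 2-fold. Leaving out 1 library gave 4519 to 4881 genes higher, 4175 to 4813 lower, 2090 to 2242 raised 2-fold and 997 to 1073 lowered 2-fold. The count of genes whose difference differed between DMSO and EPZ5676 was 58 with all 18 libraries and ran from 497 to 1105 without 1 library; the cause was not tested. Scaling by library size alone gave 4477 genes higher and 5207 lower. Genes not called whose sign turned were ATF4 (-0.0032 with library size alone), BCL2L1 (-0.0056 to 0.10 without 1 library), CD274 (-0.017 to 0.27 without 1 library), CDKN2A (-0.0061 with library size alone, -0.0079 to 0.10 without 1 library), EGF (-0.013 to 0.29 without 1 library), HIF1A (-0.0011 with library size alone, -0.016 to 0.11 without 1 library), ISG15 (-0.017 to 0.19 without 1 library), LOX (-0.22 to 1.13 without 1 library), MC1R (-0.24 to 0.063 without 1 library), MDM2 (0.0072 with mean of at least 5 CPM, -0.12 to 0.034 without 1 library), MX1 (-0.20 to 0.10 without 1 library) and MYO5A (-0.016 with library size alone, -0.0012 to 0.072 without 1 library). Of 186 counts of list members called, 126 stayed within 1.5 times under every alternative and 60 did not, 43 of them counts under 5. Asking for a mean of at least 5 CPM moved 47 of these, among higher members inflammatory cytokines and receptors (11, against 22), interferon response and sensing (13, against 20), neuronal and synaptic genes (4, against 11), other collagens (10, against 19), matrix metalloproteinases (7, against 12), potassium channels (6, against 16), protocadherins (7, against 21) and phosphodiesterases (6, against 11). Leaving out a library moved 24, none with more than 6 members called, and the other settings moved 17, none with more than 5. Whether replicate numbers pair the samples is not stated. Deviations of same-numbered high and low libraries correlated at 0.116, 0.029 and -0.032, and those of other pairs at -0.163 to 0.146. With 3 libraries a sort, these values cannot decide whether the samples were paired. The replicate block gave 4796 genes higher, 4621 lower, 2079 raised 2-fold, 1004 lowered 2-fold and 821 for the difference between treatments, and it ended the call of AURKB (adjusted p = 0.0632) and gained those of BIRC5 (0.0442) and H1-4 (0.00575), and of no other gene named. Levels under about 1 CPM rest on few reads, so fold changes against them depend on the prior count. With 3 libraries a sort, of unknown origin, the spread may be technical, and the no-feature share of DMSO high replicate 3 stands apart. The strand setting is not given in the sources used here, so antisense partners cannot be told apart.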

Other observations

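Smaller gene families outside the main lists were each read against 29% higher and 27.8% lower over all genes tested. Among them, ABC transporters and lysine methyltransferases lay near those shares. Of 10 S100 calcium-binding proteins, 8 were higher and 1 lower (2 lower without DMSO high replicate 2 or DMSO low replicate 1), with S100A3 at 9.11, 6.43 and 8.1 CPM in DMSO high cells, against 0, 0.050 and 0.0893 CPM in DMSO low cells (7.18 ± 0.39). Of 11 TNF receptors, 8 were higher and 2 lower (1 lower without DMSO high replicate 2 or DMSO low replicate 3), and TNFRSF1B stood at 23.6, 22.7 and 19.7 CPM in high cells, against 0.146, 0.050 and 0.179 CPM in low cells (7.36 ± 0.24). Of 13 RGS proteins, which switch off G proteins, 7 were higher and 5 lower, with RGS2 (4.39 ± 0.10) and RGS3 (4.39 ± 0.13) against RGS20 (-2.26 ± 0.09). Phosphodiesterases, which break down cyclic nucleotides, were higher for 11 of 20 and lower for 2 (1 lower without DMSO high replicate 3, DMSO low replicate 1, DMSO low replicate 2 or DMSO low replicate 3), with PDE9A (5.52 ± 0.31) and PDE3B (-2.21 ± 0.07) on opposite sides.

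Of 34 nuclear receptors, 16 were higher and 7 lower. NR2F1, an orphan receptor of the neural crest, stood at 30.7, 27.1 and 23.7 CPM in high cells, against 0.244, 0.75 and 0.982 CPM in low cells (5.34 ± 0.24), and VDR, the vitamin D receptor, was higher (2.95 ± 0.14). Lysine demethylases were split (8 higher and 6 lower of 16), with KDM5B, known from slow-cycling melanoma cells, lower (-0.91 ± 0.07). Lysine methyltransferases were higher for 14 of 39 and lower for 9 (median 0.04, negative when scaled by library size), among them DOT1L, the target of EPZ5676, at 207, 192 and 213 CPM in high cells, against 124, 126 and 123 CPM in low cells (0.71 ± 0.06), a gene that shares 529 exon bases with PLEKHJ1 on the other strand. ABC transporters were even (9 higher and 9 lower of 30), with ABCG2 higher (1.17 ± 0.16) and ABCC1 lower (-0.71 ± 0.07).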
